A study of Mus musculus with 16 samples.

Results

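The transcript of Cspg4, which encodes the proteoglycan NG2, was followed across 16 mouse tumors together with 9 genes of platelet-derived growth factor (PDGF) signaling and of pericytes, namely Pdgfa, Pdgfb, Pdgfra, Pdgfrb, Rgs5, Mcam, Des, Kcnj8 and Abcc9. These 10 of the 22298 counted genes were chosen by name, and Cspg4 was selected on its measured difference between the groups, which ranked 2nd by p among 16817 tested genes, so that difference is described here without a test. The tumors grew in 6-week-old sex-matched 615-line mice of WT genotype that received 500000 MFC cells, the mouse forestomach carcinoma line, into the peritoneal cavity. The vehicle group of 8 tumors came from mice given PBS, and the IL-33 treatment group of 8 tumors came from mice given IL-33, a cytokine of the IL-1 family, at 20 μg/kg into the peritoneal cavity every 2 days. All tumors came from 1 cell line. The study's methods give 4 or 5 mice per group for this model and the labels do not tie tumors to mice, so tumors may share a mouse, in which case every p-value here is too small.

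Pericytes are mural cells that wrap capillaries, and endothelial cells recruit them by releasing PDGF-BB, the product of Pdgfb, which binds the receptor encoded by Pdgfrb on the pericyte. PDGF-AA, the product of Pdgfa, acts on the receptor encoded by Pdgfra, which fibroblasts and other mesenchymal cells carry. NG2 sits on the surface of pericytes, and also on glial progenitors and on some tumor cells, so a bulk tumor can hold Cspg4 transcripts from more than 1 source. In such bulk RNA, fewer cells of a type and less RNA per cell cannot be told apart.

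Each tumor held between 14139268 and 24290794 counts, and levels are given as CPM, the counts of a gene in 1000000 counts of its tumor. Between 295 and 1184 counts of Cspg4 were recorded per tumor, so counting error was small for this gene. A pair of tumors stood apart from the others. IL-33 replicate 7 held 1922 summed CPM of uterus and oviduct genes, against at most 26.4 CPM in each of the other 15 tumors, 7678 summed CPM of smooth muscle genes, against at most 625 CPM, and only 52.8 CPM of Hmga2, an oncofetal growth gene found at 449.7 to 1237 CPM elsewhere. Vehicle replicate 4 held 12805 summed CPM of red blood cell genes, and its scaling factor by the trimmed mean of M values (TMM) was 0.64 against 0.895 to 1.24 in the others. Results were therefore computed with both tumors, without IL-33 replicate 7 (15 tumors), and without both (14 tumors).

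The promoter windows of 3 genes are shown, since Rgs5 and Mcam varied together across the tumors and Cspg4 did not vary with either, as described below. Each runs from 250 bases before to 50 bases after the transcription start of the RefSeq annotation of GRCm38.p6 and lies on the plus strand. Capitals mark the GC box GGGCGG on either strand, a site bound by Sp family factors.
Cspg4, chr9:56864854-56865153: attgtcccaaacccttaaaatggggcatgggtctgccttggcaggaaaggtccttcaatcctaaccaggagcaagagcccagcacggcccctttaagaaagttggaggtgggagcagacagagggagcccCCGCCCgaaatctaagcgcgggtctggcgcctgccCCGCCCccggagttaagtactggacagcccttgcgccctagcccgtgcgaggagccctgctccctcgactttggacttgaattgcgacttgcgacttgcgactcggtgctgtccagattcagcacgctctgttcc
Rgs5, chr1:169655251-169655550: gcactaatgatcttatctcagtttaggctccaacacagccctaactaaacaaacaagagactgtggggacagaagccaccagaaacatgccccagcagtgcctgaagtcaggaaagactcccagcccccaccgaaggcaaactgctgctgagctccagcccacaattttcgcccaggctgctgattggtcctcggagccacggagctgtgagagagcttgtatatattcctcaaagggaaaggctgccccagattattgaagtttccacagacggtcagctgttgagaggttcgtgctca
Mcam, chr9:44134408-44134707: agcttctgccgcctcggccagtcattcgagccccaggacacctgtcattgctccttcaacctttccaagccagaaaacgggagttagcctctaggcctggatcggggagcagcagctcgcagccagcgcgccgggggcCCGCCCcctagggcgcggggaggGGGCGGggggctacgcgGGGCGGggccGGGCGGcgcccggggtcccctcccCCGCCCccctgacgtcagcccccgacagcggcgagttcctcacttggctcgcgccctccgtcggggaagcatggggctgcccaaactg
The Cspg4 window held 2 GC boxes, the Mcam window 5 and the Rgs5 window 0, and 35.7% of 32851 mouse promoter windows of 300 bases held at least 1. None of the 3 windows held the TATA box TATAAA, which 13.6% of all windows held, the RBPJ core TGGGAA, which 25.6% held, or the CArG box, which 1.63% held, each searched on both strands. GC content was 60% in the Cspg4 window, 52.3% in that of Rgs5 and 72.7% in that of Mcam. These matches are a description of letters only.

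Per kilobase of exon, the vehicle medians ordered the 10 transcripts from Pdgfrb (11.1 CPM per kb) through Pdgfa (8.94), Pdgfra (6.44), Mcam (6.02), Des (4.13), Cspg4 (3.46), Rgs5 (2.55), Pdgfb (1.90) and Kcnj8 (1.22) to Abcc9 (0.486). Kcnj8 and Abcc9, the pair that encodes the subunits of the vascular ATP-sensitive potassium channel, were the lowest of the pericyte genes on this per-length scale.

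Cspg4 was lower in the IL-33 treatment group. In the vehicle tumors it lay at 29.9 CPM at the lowest, 41.3 at the median and 73.0 at the highest, and in the IL-33 tumors at 15.95, 27.4 and 42.6 CPM. All 8 IL-33 tumors lay below the vehicle mean of 44.9 CPM and 5 of them lay below every vehicle tumor, while IL-33 replicates 4, 7 and 8 overlapped the vehicle range. The ratio of the IL-33 mean (28.8 ± 7.76 CPM, SD, n = 8) to the vehicle mean (44.9 ± 13.3 CPM, SD, n = 8) was 0.642, and it was 0.598 without IL-33 replicate 7. On the log2 scale the change fitted by edgeR was −0.78 (SE 0.19) in all tumors and −0.83 (SE 0.20) without IL-33 replicate 7. Cspg4 lies at chr9:56865033-56899870 on the plus strand of GRCm38, and no annotated gene that overlaps it was counted. This difference is among the values that selected the gene and supports nothing further.

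**Figure D1:**
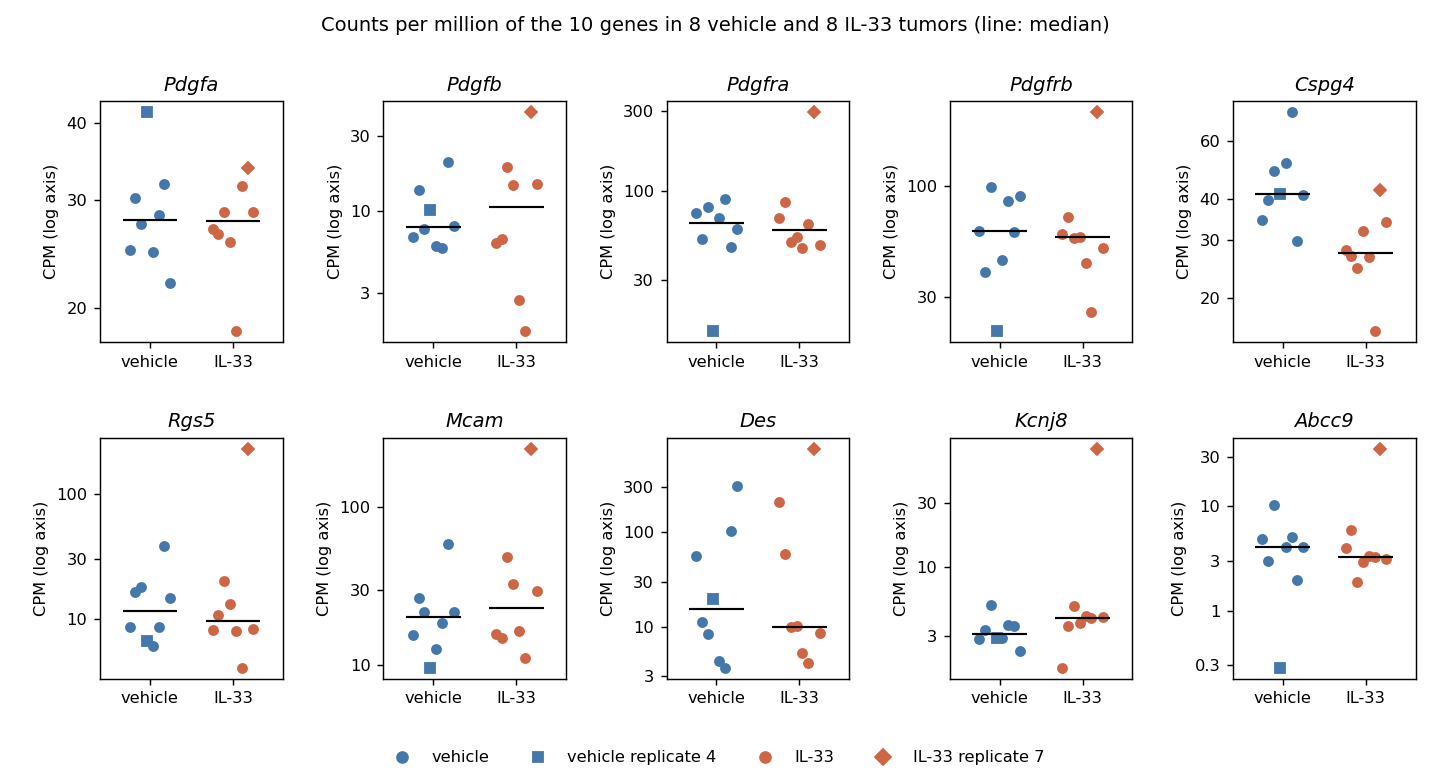
CPM (log axis) of the 10 genes in each of 8 vehicle and 8 IL-33 tumors, with the group median as a line. IL-33 replicate 7 (diamond) is the highest tumor for 8 genes but lies within the vehicle range of Cspg4, at 42.6 CPM, and vehicle replicate 4 (square) is the highest for Pdgfa, at 41.7 CPM.

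Neither ligand transcript passed edgeR's test between the groups. Pdgfa lay at 22.0, 27.9 and 41.7 CPM (lowest, median, highest) in the vehicle tumors and at 18.4, 27.8 and 33.8 CPM in the IL-33 tumors. The groups overlapped almost entirely, with vehicle replicate 4 the highest tumor and 1 IL-33 tumor, replicate 5, below every vehicle tumor. The log2 change of Pdgfa was −0.23 (SE 0.20), with an adjusted p of 0.739. Pdgfb lay at 5.86, 7.89 and 20.7 CPM in the vehicle tumors and at 1.73, 10.7 and 42.6 CPM in the IL-33 tumors. IL-33 replicate 7 lay above every vehicle tumor and replicates 5 and 6 below every one, so that the IL-33 tumors were the more spread of the groups. Its log2 change was 0.25 (SE 0.49, adjusted p = 0.910), and −0.16 (SE 0.44, adjusted p = 0.972) without IL-33 replicate 7.

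Neither receptor transcript passed the test, and the sign of both changes turned with 1 tumor. Pdgfra lay at 14.9, 64.5 and 90.6 CPM in the vehicle tumors and at 46.4, 59.1 and 294.8 CPM in the IL-33 tumors. Vehicle replicate 4 was the lowest and IL-33 replicate 7 the highest of all, and the other 14 tumors lay between 46.4 and 90.6 CPM. Its log2 change was 0.43 (SE 0.35, adjusted p = 0.701), and −0.02 (SE 0.24) without IL-33 replicate 7. Pdgfrb, the pericyte receptor, lay at 20.9, 61.1 and 98.8 CPM in the vehicle tumors and at 25.5, 57.2 and 220.7 CPM in the IL-33 tumors. Again IL-33 replicate 7 alone lay above every vehicle tumor. Its log2 change was 0.10 (SE 0.33, adjusted p = 0.954), and −0.28 (SE 0.24, adjusted p = 0.964) without IL-33 replicate 7.

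Among the pericyte genes, Rgs5, a regulator of G protein signaling that marks pericytes, lay at 6.07, 11.6 and 38.4 CPM in the vehicle tumors and at 4.06, 9.50 and 227 CPM in the IL-33 tumors. IL-33 replicate 7 stood far above the next tumor, vehicle replicate 7, and the other 7 IL-33 tumors lay at 20.1 CPM or less. The log2 change was 1.12 (SE 0.71, adjusted p = 0.604), and −0.52 (SE 0.36, adjusted p = 0.964) without IL-33 replicate 7. Mcam, which encodes the adhesion molecule CD146 of pericytes and endothelium, lay at 9.69, 20.2 and 58.3 CPM in the vehicle tumors and at 11.2, 23.0 and 233.5 CPM in the IL-33 tumors. Vehicle replicate 7, at 58.3 CPM, and IL-33 replicate 3, at 48.6 CPM, came next after IL-33 replicate 7, as they did for Rgs5. The log2 change of Mcam was 0.93 (SE 0.54, adjusted p = 0.554), and 0.04 (SE 0.34) without IL-33 replicate 7.

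Des, which encodes the intermediate filament desmin of muscle and pericytes, ranged most widely. It lay at 3.70, 15.5 and 309 CPM in the vehicle tumors and at 4.16, 10.1 and 758.9 CPM in the IL-33 tumors. After IL-33 replicate 7, vehicle replicate 8 and IL-33 replicate 1, at 210 CPM, were the highest. The log2 change was 0.85 (SE 1.12, adjusted p = 0.848), and −0.54 (SE 1.03) without IL-33 replicate 7.

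Kcnj8 and Abcc9 encode the pore and the regulatory subunit of 1 potassium channel and neighbor each other on chromosome 6. Kcnj8 lay at 2.31, 3.11 and 5.09 CPM in the vehicle tumors and at 1.73, 4.11 and 76.9 CPM in the IL-33 tumors. IL-33 replicate 7 stood alone, and the other 7 IL-33 tumors, at 1.73 to 5.03 CPM, overlapped the vehicle range. Its log2 change was 1.68 (SE 0.66, adjusted p = 0.418), and 0.14 (SE 0.24, adjusted p = 0.967) without IL-33 replicate 7. Abcc9 lay at 0.283, 4.07 and 10.3 CPM in the vehicle tumors and at 1.86, 3.30 and 35.4 CPM in the IL-33 tumors. Its lowest value belonged to vehicle replicate 4 and its highest to IL-33 replicate 7. The log2 change was 0.67 (SE 0.60, adjusted p = 0.739), and −0.25 (SE 0.43) without IL-33 replicate 7.

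**Figure D2:**
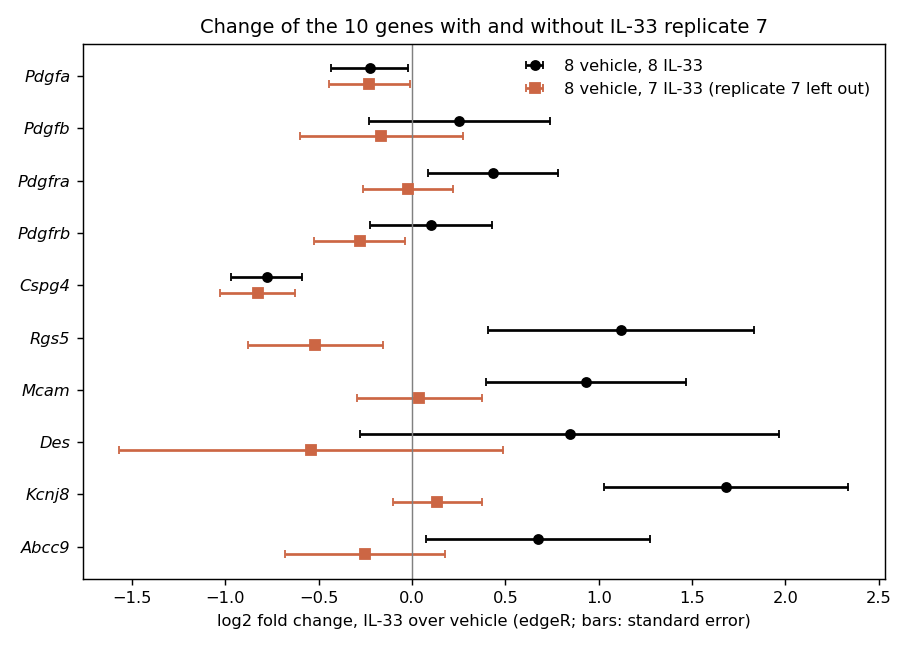
Log2 fold change of each gene, IL-33 over vehicle, with its standard error from edgeR, in all 16 tumors (circles) and without IL-33 replicate 7 (squares). Cspg4 lies at −0.78 and −0.83, while Rgs5, Des, Pdgfra, Pdgfrb, Pdgfb and Abcc9 pass from above to below 0.

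By edgeR's quasi-likelihood test, 0 of the 10 genes had an adjusted p under 0.05, as 0 of the 16817 tested genes did, 0% of them. Of the 9 genes other than Cspg4, whose difference selected it and is not counted, 1 passed an unadjusted p under 0.05, Kcnj8 (higher), where 11.2% of all genes passed, 9.99% higher and 1.17% lower. Without IL-33 replicate 7, 0 of these 9 genes passed by edgeR or by DESeq2, where 4.12% of 15803 genes passed by edgeR, 1.83% higher and 2.29% lower. By edgeR again 0% had an adjusted p under 0.05. The unadjusted p of Kcnj8 by edgeR was 0.020 with IL-33 replicate 7 and 0.578 without it. By DESeq2, run with its default replacement of outlying counts, it was 0.595 on all tumors. The log2 change of Kcnj8 by DESeq2 was 0.125 on all tumors and 0.129 without IL-33 replicate 7, so these fits were nearly the same for this gene. DESeq2 also gave 0 genes with an adjusted p under 0.05 in all tumors, and 691 at an unadjusted p under 0.05. Without IL-33 replicate 7 DESeq2 gave 1 gene with an adjusted p under 0.05 (0.013), which was none of the 10. Single genes were also compared by a two-sided exact permutation test on log2(CPM + 0.5), with every relabeling of the 16 tumors enumerated, which gave p between 0.224 and 0.995 for the 9 genes other than Cspg4.

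The other genes of these pathways were counted in the same way by edgeR. Of all genes, 11.2% passed an unadjusted p under 0.05 in all tumors and 4.12% without IL-33 replicate 7. Of the 6 remaining PDGF ligands, receptors and activating proteases (Pdgfc, Pdgfd, Pdgfrl, Plat, Plau and Nrp1), 0 passed an unadjusted p under 0.05 in all tumors, with a median log2 change of 0.17 beside 0.06 over all genes. Without IL-33 replicate 7, Pdgfrl, a receptor-like protein, passed as lower (log2 change −2.59, SE 0.88, adjusted p = 0.964), and its vehicle tumors ran from 0.353 to 24.2 CPM. Of 15 transducers of PDGF receptor signals, such as Grb2, Plcg1 and Pik3r1, 0 passed with or without that tumor. Of 11 further pericyte markers, Rgs4 and Anpep passed as higher and Ndufa4l2 as lower in all tumors, and 0 passed without IL-33 replicate 7. Of 9 binding partners of NG2, the collagen VI chains and integrin subunits among them, Grip1 alone passed in all tumors, and it had 3.65 CPM in IL-33 replicate 7 and 0.245 CPM or less in each of the other 15. Without IL-33 replicate 7 its log2 change was 0.39 (SE 0.98, adjusted p = 0.971), and 0 of the 9 passed.

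The next comparison asked whether Cspg4 followed the pericyte genes from tumor to tumor. Pearson's r was computed on log2(CPM + 0.5) with TMM scaling, and p by 100000 permutations of the tumors with adjustment over 16816 genes. Over the 16 tumors, r of Cspg4 was 0.00 with Rgs5 (Spearman's rho 0.09), −0.13 with Mcam (rho −0.04), −0.11 with Des (rho −0.14), −0.01 with Kcnj8 (rho −0.04), −0.03 with Abcc9 (rho 0.21) and 0.21 with Pdgfrb (rho 0.21). With the PDGF genes, r was 0.29 for Pdgfa (rho 0.04), 0.16 for Pdgfb (rho 0.06) and −0.06 for Pdgfra (rho 0.06). Permutation p lay between 0.268 and 0.996 and the adjusted p was 1 for all 9, and 0 of the 9 passed an unadjusted p under 0.05, where 5.33% of all genes did.

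Without the 2 tumors farthest from the median Cspg4 level, vehicle replicates 6 and 4, r was 0.16 with Rgs5, 0.01 with Mcam and 0.39 with Pdgfrb. Without IL-33 replicate 7 and vehicle replicate 4, r was 0.03 with Rgs5, −0.13 with Mcam, −0.18 with Des, 0.46 with Abcc9 and 0.57 with Pdgfrb (rho 0.36). Pdgfrb then had a permutation p of 0.035, which adjustment over all genes took to 0.367, and 12.0% of all genes passed an unadjusted p under 0.05 over these 14 tumors. Within the vehicle tumors alone r was −0.59 with each of Rgs5, Mcam and Des, with permutation p of 0.120, 0.113 and 0.123. Within the IL-33 tumors without replicate 7 it was 0.38, 0.34 and 0.27. The difference in sign between the groups was not tested.

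The counts of Cspg4 and Rgs5 are also given as a ratio. It rises with Cspg4 and falls with Rgs5 by construction, so it describes the tumors and is no test of a relation. IL-33 replicate 7 held 748 counts of Cspg4 and 3984 of Rgs5, or 0.188 counts of Cspg4 per count of Rgs5. Vehicle replicate 7 held 523 and 671 counts, a ratio of 0.779, and IL-33 replicate 3 held 451 and 368, a ratio of 1.23. In the other 13 tumors the ratio lay between 2.43 and 8.52. The tumor with the highest Cspg4 level, vehicle replicate 6, had the highest ratio, with 1184 counts of Cspg4 and 139 of Rgs5.

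**Figure D3:**
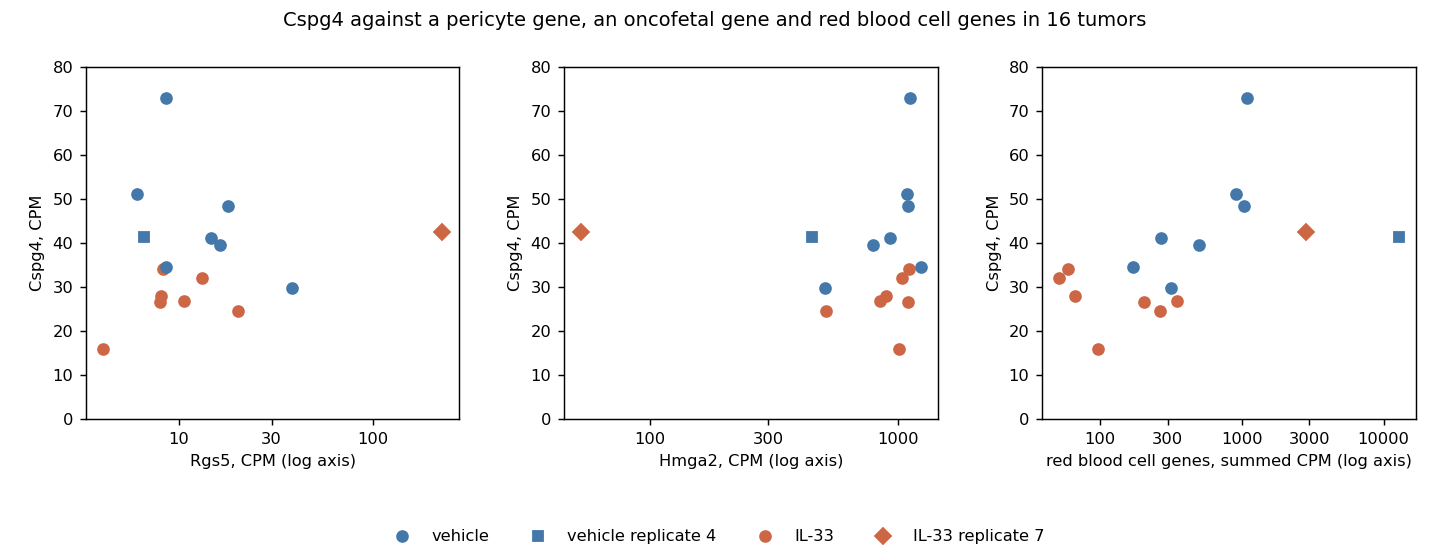
Cspg4 (CPM, linear axis) against Rgs5, Hmga2 and the summed red blood cell genes (CPM, log axes) in each of 16 tumors. IL-33 replicate 7 (diamond) has 227 CPM of Rgs5 and 52.8 CPM of Hmga2 at a Cspg4 level of 42.6 CPM, inside the range of the other tumors.

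No label gives the tumor cell content of a sample, so lists of genes stood for it. Over the 16 tumors, r of Cspg4 with the mean log2 level of the list was −0.03 for the oncofetal growth genes, of which Hmga1, Hmga2 and Igf2bp2 carried nearly all counts, −0.21 for the proliferation genes and 0.07 for the epithelial genes. It was −0.25 for the leukocyte genes, −0.03 for blood endothelium, 0.05 for smooth muscle, 0.10 for fibroblasts and 0.09 for the pericyte markers other than the 10 genes. It was −0.22 for the PDGF signal transducers, 0.12 for the NG2 binding partners, 0.17 for adipocytes, 0.11 for mesothelium, −0.16 for skeletal muscle and −0.04 for each of the other PDGF genes, Schwann cells and uterus and oviduct. All of these had an adjusted permutation p of 0.917 over the 17 lists. The mean log2 level of the epithelial list was 4.78 in IL-33 replicate 7 and at most 1.30 in each other tumor. Epcam, Krt18 and Cldn3 lay near the floor in the other 15 tumors, at medians of 0.288, 0.165 and 0.055 CPM. Krt8 and Krt19 were abundant there, at medians of 475 and 130 CPM. Several of these values of r rested on 1 tumor. Without IL-33 replicate 7, r was −0.53 for proliferation and −0.52 for uterus and oviduct (adjusted permutation p = 0.268 for both), 0.36 for epithelium (0.809), −0.26 for leukocytes (0.810) and −0.11 for the oncofetal growth genes (0.840). Without IL-33 replicate 6, r was −0.56 for leukocytes (adjusted permutation p = 0.249), and without vehicle replicate 4 it was 0.34 for the PDGF signal transducers (0.956). IL-33 replicate 7, the tumor with the least Hmga2, held 42.6 CPM of Cspg4 by total counts, beside a vehicle median of 41.3 CPM. With TMM scaling, as used for r, it held 34.3 CPM. On that scale only replicates 7 (28.5 CPM) and 1 (33.6 CPM) of the vehicle tumors were lower, and the highest held 74.4 CPM. The part of tumor cells in the Cspg4 levels was not tested.

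The red blood cell genes, hemoglobin chains and erythroid proteins, had the highest r with Cspg4 among the lists. Over the 16 tumors r was 0.71 (rho 0.62), with a permutation p of 0.0023 and an adjusted p of 0.040, while the adjusted p of rho was 0.201. The permutations moved tumors across the groups, so these p draw partly on the difference that selected Cspg4 and are no independent test. With each tumor left out in turn r lay between 0.61 and 0.76, and the adjusted permutation p rose above 0.05 on leaving out any 1 of vehicle replicates 2, 3, 4, 5, 7 and 8 or IL-33 replicates 1, 2, 5 and 6, most of all without vehicle replicate 4 (0.231). Summed over the list, vehicle tumors held 171 to 12805 CPM. IL-33 replicate 7 held 2846 CPM, and its 7 group mates held 51.2 to 347 CPM. Of 7 genes with a row, 4 passed an unadjusted p under 0.05 by edgeR as lower with IL-33, where 1.17% of all genes did. They were the hemoglobin genes Hba-a1, Hba-a2, Hbb-bs and Hbb-bt, and 0 passed without vehicle replicate 4. Without IL-33 replicate 7, 6 of the 7 passed as lower, Alas2 and Slc4a1 besides those 4, where 2.29% of all genes did. Because both Cspg4 and these genes were lower in the IL-33 group, r was also taken within groups. It was 0.75 within the 8 vehicle tumors (permutation p = 0.024, adjusted p = 0.133), 0.30 within the 8 IL-33 tumors and −0.24 within the 7 IL-33 tumors without replicate 7. With each group centered on its mean it was 0.59 (adjusted permutation p = 0.281), and without the 2 tumors farthest from the median Cspg4 level it was 0.56 (adjusted p = 0.627). With CPM of total counts in place of TMM scaling, which puts Cspg4 in vehicle replicate 4 at 41.4 in place of 64.7 CPM, r was 0.58 (adjusted permutation p = 0.316). The adjusted p was above 0.05 within either group, the difference in r between the groups was not tested, and 7 or 8 tumors cannot show that a relation is absent. The part of blood content in the Cspg4 levels was not tested.

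Other relations of Cspg4 appeared within the vehicle group only as unadjusted values. Within those 8 tumors r was −0.89 with the proliferation genes (permutation p = 0.0041, adjusted p = 0.055) and 0.87 with the adipocyte genes (permutation p = 0.0064, adjusted p = 0.055). Within the 7 IL-33 tumors without replicate 7 the same r were 0.50 and −0.74, with adjusted permutation p of 0.846 and 0.713. The signs were opposite, and that difference was not tested.

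**Figure D4:**
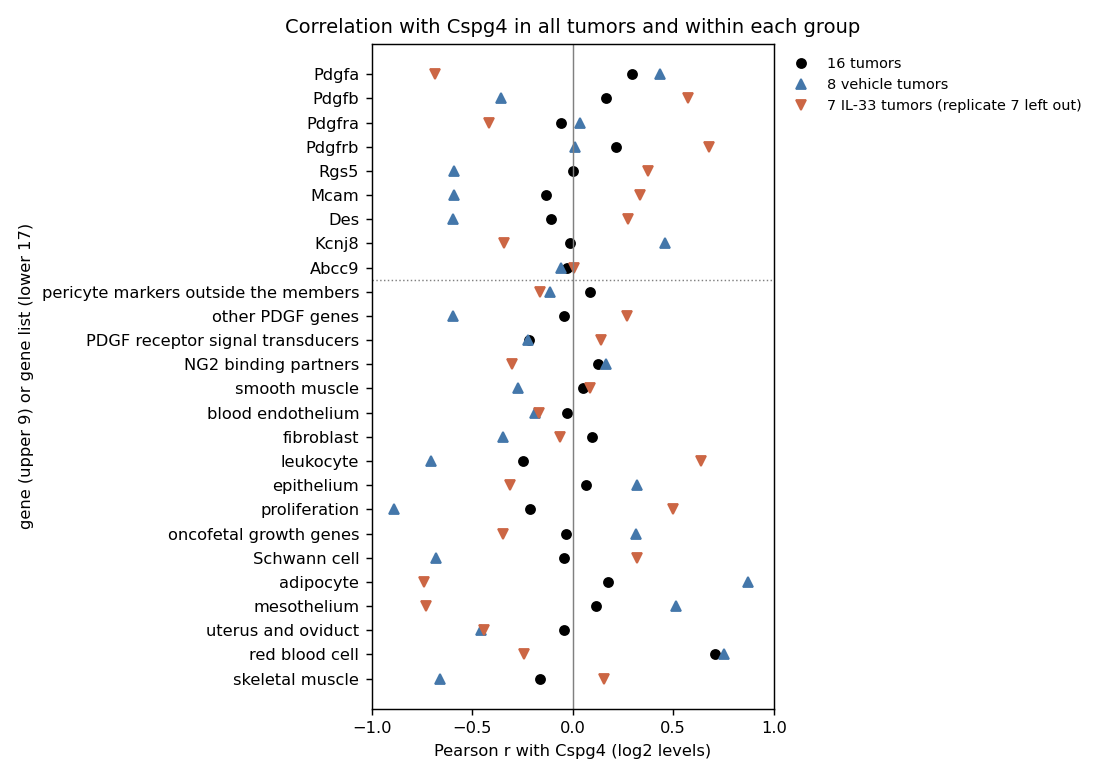
Pearson's r of Cspg4 with the 9 other genes (upper rows) and 17 gene lists (lower rows) in 16 tumors (circles), 8 vehicle tumors (triangles pointing up) and 7 IL-33 tumors without replicate 7 (triangles pointing down). The red blood cell list lies at 0.71, 0.75 and −0.24, and Rgs5 at 0.00, −0.59 and 0.38.

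None of the other 9 genes was among those most like Cspg4. Over the 16 tumors, among 13108 genes with a mean of at least 1 CPM, the highest r belonged to Sgsm3 (0.85), Pcdhb15 (0.80), St3gal3 (0.79), 1700003E16Rik (0.79), 2410131K14Rik (0.78), Cdk20 (0.77) and Cbx6, Dalrd3, Armc9 and Slc4a2 (0.76 each). The lowest belonged to 1110059E24Rik (−0.81), Rnf138 (−0.79), Tdg (−0.78), Zfp120 (−0.77) and Gtdc1 (−0.76). All 15 had an adjusted permutation p of 0.498, and 0 of the 16816 genes had one under 0.05 over either set of tumors. Over the 14 tumors the highest r belonged to Tmcc2 (0.92), Adcy7 (0.90), Adgra3 (0.88), Lzts3, Ppip5k1 and Kansl1l (0.87 each), Slc2a13 and Lpcat3 (0.86 each) and Tssk6 and Sema6a (0.85 each). The lowest belonged to Npm1 (−0.91), which encodes a nucleolar chaperone, and to Snx5, Nfu1, Sys1 and AA467197 (−0.89 each). Their adjusted p lay between 0.074 and 0.093. By r over the 16 tumors, Rgs5 ranked 7796th of 16816 genes, and the 9 genes ran from Pdgfa (2260th) to Mcam (11661st). Over the 14 tumors they ran from Pdgfrb (812th), Abcc9 (1651st) and Pdgfra (2317th) to Pdgfa (11566th), with Rgs5 7404th.

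Among themselves, the other 9 genes fell into several patterns over the 14 tumors, given here as a description of genes measured in the same libraries. Rgs5, Mcam and Pdgfb varied together, with r of 0.84 between Rgs5 and Mcam (rho 0.75), 0.85 between Mcam and Pdgfb (rho 0.87) and 0.75 between Rgs5 and Pdgfb (rho 0.71). Rgs5 had r of 0.88 with the further pericyte markers, 0.83 with blood endothelium and 0.83 with smooth muscle. Mcam had r of 0.86 with blood endothelium and 0.84 with the leukocyte genes, and Pdgfb, the ligand that endothelium releases, had 0.83 with the leukocyte genes and 0.60 with blood endothelium. Vehicle replicate 7 and IL-33 replicate 3, the highest of these 14 tumors in all 3 genes, also held the most blood endothelium transcripts, at 404 and 329 summed CPM.

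Pdgfra and Abcc9 made a second pair, with r of 0.80 (rho 0.83), and of 0.95 over all 16 tumors. Pdgfra had r of 0.84 with the NG2 binding partners and −0.84 with the leukocyte genes, and −0.67 with Mcam. Abcc9, although it is a pericyte channel gene in many tissues, had r of −0.64 with Mcam and −0.29 with Rgs5, and r of 0.03 with Kcnj8, its channel partner. Pdgfrb lay between the patterns, with r of 0.40 with Rgs5, 0.41 with Pdgfra, 0.52 with Abcc9, 0.57 with Cspg4 and 0.59 with the fibroblast genes.

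Des followed neither pattern. Its r was 0.34 with Rgs5 and 0.10 with Mcam, but 0.97 (rho 0.81) with 12 skeletal muscle genes, a list added after the values had been seen. Those genes, Acta1, Ckm and fast myosin chains among them, summed to 1493 CPM in vehicle replicate 8, 954 CPM in vehicle replicate 7 and 921 CPM in IL-33 replicate 1, the tumors with 309, 102 and 210 CPM of Des. IL-33 replicate 7 departed from this, with 61.7 summed CPM of the skeletal muscle genes at 758.9 CPM of Des, and it held 7678 summed CPM of the smooth muscle genes. Of the 12 muscle genes, Myh1, Myh2 and Myh4 were at a median of 0 CPM in the 15 tumors other than IL-33 replicate 7, and the part of muscle tissue in the Des levels was not tested.

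**Figure D5:**
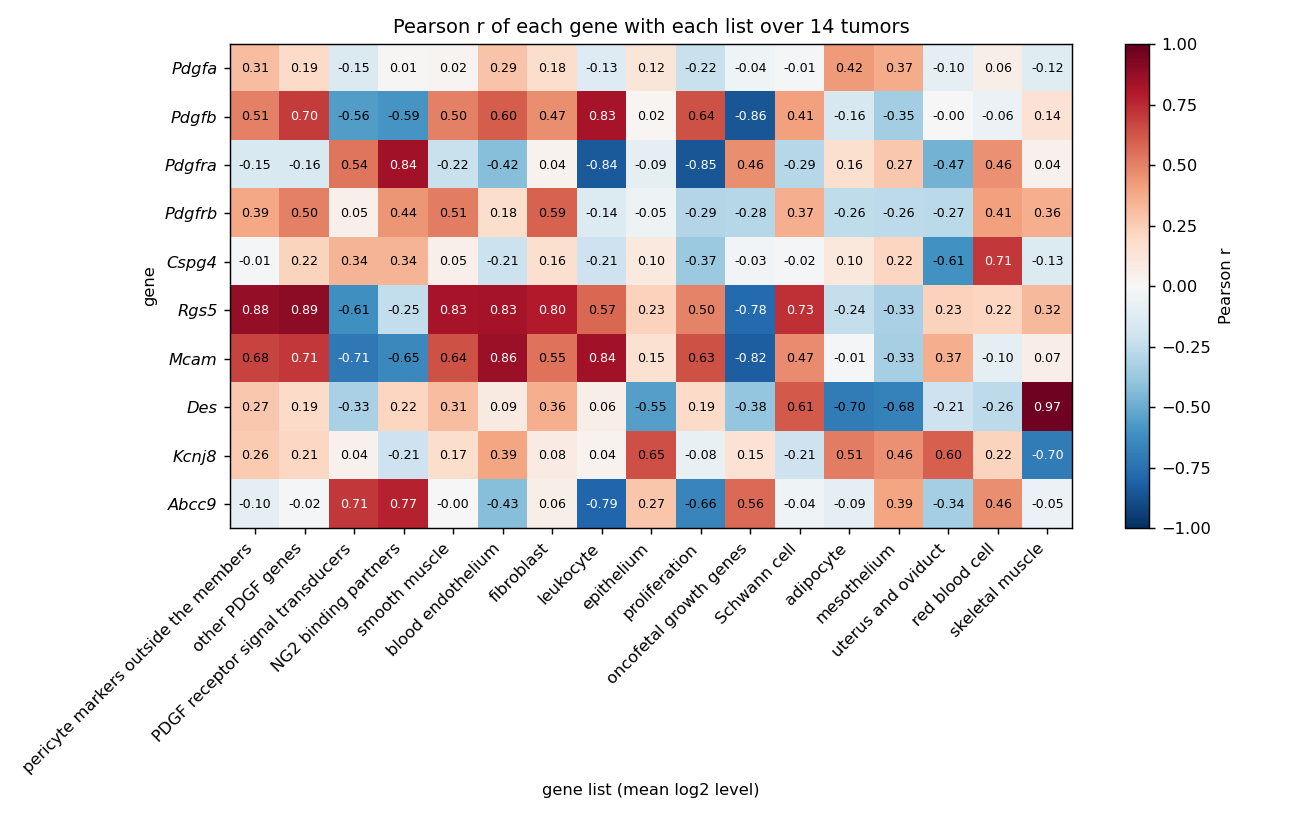
Pearson's r of the 10 genes (rows) with 17 gene lists (columns) on log2 levels over 14 tumors, without IL-33 replicate 7 and vehicle replicate 4. Rgs5 and Mcam share high values with blood endothelium (0.83 and 0.86), Des stands out with skeletal muscle (0.97), and Cspg4 has its highest value with the red blood cell genes (0.71).

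The mean log2 level of Rgs5, Des, Mcam, Kcnj8, Abcc9 and Pdgfrb, taken as 1 pericyte score, had r of −0.05 with Cspg4 over 16 tumors and 0.02 over 14. Over the 16 tumors the same score had r of 0.93 with smooth muscle, 0.88 with blood endothelium, 0.88 with the further pericyte markers and −0.91 with the oncofetal growth genes, and over the 14 tumors 0.70, 0.48, 0.67 and −0.60. Its highest r over the 16 tumors was with the Schwann cell genes (0.96). Those 10 genes together summed to 97.6 CPM in IL-33 replicate 7 and to only 4.03 to 16.3 CPM in the other 15 tumors. Over the 14 tumors the highest r of the score were with skeletal muscle (0.79), Schwann cells (0.79) and fibroblasts (0.73). The score includes Des, which varied with the skeletal muscle genes, so it is not a measure of pericytes alone. In IL-33 replicate 7 the summed level of the further pericyte markers was 838 CPM against 73.6 to 415 CPM elsewhere, but Ndufa4l2, the most abundant of them, was at 18.3 CPM there and at 26.2 to 390.5 CPM elsewhere.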

How the data were processed

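Polyadenylated RNA from 8 vehicle and 8 IL-33 tumors was sequenced by a contracted company. Raw counts of reads for each gene and tumor were deposited by the authors, without normalization. The submitters' processing notes name HISAT2, featureCounts and mm10, and the annotation release and the use of strand are not given in the sources used here, so reads of overlapping or antisense genes cannot be separated. No per-sample column was left unused (0 columns). Symbols and coordinates came from GENCODE M21 (GRCm38), which paired 22255 of 22298 genes, and promoters from RefSeq (GRCm38.p6). Promoter windows were searched for 8 of the 10 genes. Pdgfb was not searched, nor was Pdgfrb, since chromosome 18 was left out of the search for the 10 genes.

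Genes holding a minimum of 10 counts in all fitted tumors together entered the test with edgeR 4.0.16 (R 4.3.3), with TMM factors, its quasi-likelihood method, and p-values adjusted by Benjamini-Hochberg across all genes. Correlations used log2(CPM + 0.5) with TMM factors and 100000 permutations. The tests were tested on simulated data. Alternatives were DESeq2 1.42.0, limma 3.58.1 voom, other scalings, filters and pseudocounts, the replicate number as a block, and tumors left out. The skeletal muscle list, DESeq2 without IL-33 replicate 7 and the correlations in 7 IL-33 tumors are among the choices made after seeing the data. The 10 genes and all lists were chosen with earlier results of these data known. Genes named besides the 10 and the list members were the 10 with the highest and 5 with the lowest r with Cspg4 among genes with a mean of at least 1 CPM. The smallest chi-square per degree of freedom between libraries was 8.79, so no library was a repeat of another. Tumors of the same number did not deviate together (correlations of −0.32 to 0.35, over 0.1 in 4 of 8 pairs), so the numbers were not used as pairs. Where nothing says that tumors came from separate mice, p-values measure the spread between these tumors.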

Additional observations from a re-analysis of the deposited data

Results flagged for a closer look

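In 11 of the 20 groups examined (10 genes in 2 groups of 8 tumors), the highest tumor stood apart from the rest of its group by a gap larger than Dixon's 95% critical value. The chance rate of about 1 in 20 assumes normal values in independent groups. These groups share the same libraries and CPM was used without logs, so that rate does not apply here. IL-33 replicate 7 was that tumor for 8 genes. It held 294.8 CPM of Pdgfra where the next IL-33 tumor held 87.03, 220.7 CPM of Pdgfrb (next 71.2), 42.6 CPM of Pdgfb (next 19.0) and 227 CPM of Rgs5 (next 20.1). It held 758.9 CPM of Des (next 210), 233.5 CPM of Mcam (next 48.6), 76.9 CPM of Kcnj8 (next 5.03) and 35.4 CPM of Abcc9 (next 5.85). Vehicle replicate 7 stood apart for Rgs5, with 38.4 CPM (next 17.9), and Mcam, with 58.3 CPM (next 26.7). Vehicle replicate 8 stood apart for Des, with 309 CPM (next 102). Cspg4 and Pdgfa stood apart in neither group.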

How the results depend on the processing

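The log2 change of Cspg4 stayed between −0.86 and −0.65 with each tumor left out. The number of the 10 genes at an unadjusted p under 0.05 was 2 by edgeR, 1 by DESeq2, by voom, with the replicate block, without IL-33 replicate 7 (also by DESeq2) and without that tumor and vehicle replicate 4, and 1 to 3 with each tumor left out. Cspg4, which was selected on this difference, is 1 of them in every case, so a count of 1 holds no other gene. With the replicate block, which changed the sign of 2 genes, the log2 change was −0.73 for Cspg4, −0.0040 for Pdgfrb and −0.11 for Pdgfb, and 318 genes in place of 1876 passed an unadjusted p under 0.05. Under voom the sign turned for Pdgfra (−0.16), Pdgfrb (−0.22), Pdgfb (−0.060), Rgs5 (−0.24) and Abcc9 (−0.31), and under DESeq2 for Rgs5 (−0.51) and Abcc9 (−0.24). DESeq2 replaces outlying counts by default, and both of its values lay near those it gave without IL-33 replicate 7, listed next. Without both tumors it turned for Pdgfra (−0.14), Pdgfrb (−0.38), Pdgfa (0.012), Pdgfb (−0.055), Rgs5 (−0.58), Des (−0.66), Mcam (−0.032) and Abcc9 (−0.42), and by DESeq2 without IL-33 replicate 7 for Pdgfra (−0.022), Pdgfrb (−0.29), Pdgfb (−0.19), Rgs5 (−0.53), Des (−0.56) and Abcc9 (−0.25). With each tumor left out, the log2 change ran from −0.020 to 0.54 for Pdgfra, −0.28 to 0.23 for Pdgfrb, −0.30 to 0.0087 for Pdgfa, −0.16 to 0.46 for Pdgfb, −0.52 to 1.47 for Rgs5, −0.54 to 1.93 for Des and −0.25 to 1.01 for Abcc9. Without vehicle replicate 4 the change of Pdgfa was 0.0087, and without vehicle replicate 7 that of Mcam was 1.26 (unadjusted p by edgeR 0.0323). Of the 9 genes, 0 passed an unadjusted permutation p under 0.05 with Cspg4 over 16 tumors and with each tumor left out (0 to 0). Within the IL-33 tumors 1 did (Pdgfb), and without both tumors 1 did (Pdgfrb). The share of all genes was 5.33% over 16 tumors and 12.0% without both tumors. It was not computed within the IL-33 tumors, so the Pdgfb call is not read as a result. That group includes replicate 7, its highest tumor for Pdgfb (42.6 CPM, next 19.0) and for Cspg4 (42.6 CPM). Of the 17 lists, 1 passed over 16 tumors, 0 to 1 with each tumor left out, and 0 with Spearman's rho, CPM of total counts, each group centered, either group alone, 7 IL-33 tumors, the 2 farthest tumors left out, both tumors left out, or medians over the genes. The permutations for that 1 list, the red blood cell genes, crossed the groups, so its p draws partly on the difference that selected Cspg4. The r of Cspg4 with the red blood cell genes was −0.24 in 7 IL-33 tumors. Of the genes of the 16 lists other than skeletal muscle, 42 passed an unadjusted p under 0.05 by edgeR, 13 by DESeq2 and 12 by voom. Of all 16817 genes, 1876, 691 and 966 did. By edgeR, 15 list genes passed without IL-33 replicate 7, beside 651 of 15803 genes. Without vehicle replicate 4, 36 passed, beside 1575 of 16773 genes. The skeletal muscle list held 1 more by DESeq2. The cause of these changes was not tested.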
